A study of Mus musculus with 43 samples.

Results

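The genes described here are 10 myeloid genes of the mouse: the transcription factors Spi1 (which encodes PU.1) and Cebpa, the granule proteins Mpo, Prtn3, Elane, Ctsg and Lyz2, and the receptor genes Csf1r, Tyrobp and Fcer1g. They were taken by symbol, 10 of the 23154 gene symbols in the stage tables and of the 24411 in the sorted tables, and all 10 were present in both. The series measured single cells labelled as endothelial cells of the yolk sac, the extraembryonic tissue that forms the first blood vessels and blood cells. The 40 stage libraries held 57 cells of E8.0 (2 libraries), 132 of E8.5 (10), 97 of E9.0 (9), 110 of E9.5 (10) and 82 of E10.0 (9). The 3 sorted samples, with no replicate, were 44 Gja5+Cd44+ CR cells, 50 Gja5+Cd44+ YS cells and 36 Gja5-Cd44+ YS cells. Their labels give no embryonic day, so the age of these 3 samples is not known here and may differ between them. The labels give no strain, genotype, sort gate or treatment for any group and do not spell out CR, and no label says whether the libraries of a stage came from separate embryos, so p-values measure the spread between libraries, which may be technical.

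As background, PU.1 and C/EBP alpha are the factors that open the granulocyte and monocyte programme in blood progenitors, and the granule genes are among their known targets. Mpo makes hypochlorous acid in the azurophil granule, Prtn3, Elane and Ctsg are serine proteases of the same granule, and Lyz2 is the lysozyme of myeloid cells. Csf1r is the receptor for macrophage colony-stimulating factor, while Tyrobp (DAP12) and Fcer1g (the common Fc receptor gamma chain) are short membrane adaptors that carry signals for many immune receptors, Fcer1g also for the platelet collagen receptor Gp6. In the yolk sac the first myeloid progenitors arise from hemogenic endothelium, together with megakaryocyte and erythroid cells.

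The promoters of 5 of the genes are shown because the factor and its textbook targets are read out together below. RefSeq windows on GRCm38.p6, 250 bases before to 50 after the start, were found for 7 of the 10 genes, and each is printed along its gene's strand. Capitals mark GAGGAAG, a PU.1 core motif, in Mpo, Prtn3 and Elane, and the RUNX motif TGTGGT, or its reverse complement ACCACA, in Lyz2 and Fcer1g. The windows are chr11:87793534-87793833 (plus strand) for Mpo, chr10:79879417-79879716 (plus) for Prtn3, chr10:79886062-79886361 (plus) for Elane, chr10:117282223-117282522 (minus) for Lyz2 and chr1:171234300-171234599 (minus) for Fcer1g.
Mpo: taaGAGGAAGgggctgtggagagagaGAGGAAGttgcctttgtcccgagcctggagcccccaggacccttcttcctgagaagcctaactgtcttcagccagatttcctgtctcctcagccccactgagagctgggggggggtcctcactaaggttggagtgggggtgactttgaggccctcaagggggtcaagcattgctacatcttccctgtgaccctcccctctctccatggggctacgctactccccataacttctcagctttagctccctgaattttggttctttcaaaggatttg
Prtn3: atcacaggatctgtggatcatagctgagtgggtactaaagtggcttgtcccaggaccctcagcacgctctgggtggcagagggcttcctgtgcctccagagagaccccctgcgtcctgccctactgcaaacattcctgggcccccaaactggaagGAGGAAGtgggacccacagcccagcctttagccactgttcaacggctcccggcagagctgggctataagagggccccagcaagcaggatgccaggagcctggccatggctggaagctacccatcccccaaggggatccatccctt
Elane: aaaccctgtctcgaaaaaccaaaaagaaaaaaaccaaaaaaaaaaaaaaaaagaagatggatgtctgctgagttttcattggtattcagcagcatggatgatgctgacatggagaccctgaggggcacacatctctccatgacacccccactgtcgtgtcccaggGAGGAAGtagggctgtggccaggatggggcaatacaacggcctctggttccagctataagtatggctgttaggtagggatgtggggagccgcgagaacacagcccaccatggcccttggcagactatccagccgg
Lyz2: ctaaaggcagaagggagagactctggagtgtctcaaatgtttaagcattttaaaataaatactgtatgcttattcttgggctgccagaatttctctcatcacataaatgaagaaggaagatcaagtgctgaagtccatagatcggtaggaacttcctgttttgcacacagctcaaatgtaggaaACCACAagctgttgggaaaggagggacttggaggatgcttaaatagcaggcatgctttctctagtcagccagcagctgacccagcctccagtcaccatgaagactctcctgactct
Fcer1g: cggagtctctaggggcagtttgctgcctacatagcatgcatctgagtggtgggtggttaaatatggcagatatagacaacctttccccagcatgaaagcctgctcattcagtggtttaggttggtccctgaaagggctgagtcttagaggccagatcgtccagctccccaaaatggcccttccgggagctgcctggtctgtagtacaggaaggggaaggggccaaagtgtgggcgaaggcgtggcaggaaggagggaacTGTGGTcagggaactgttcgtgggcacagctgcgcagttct
On either strand, GAGGAAG was found in 13.6% of the 32851 windows of that length and in 4 of the 7, namely Mpo (-247 to -241 and -224 to -218 from the start), Prtn3 (-95 to -89), Elane (-85 to -79) and Ctsg (-216 to -210). TGTGGT was found in 16.8% of windows and in 3 of the 7, Ctsg, Lyz2 and Fcer1g. A C/EBP motif, TTGCNNAA, was found in 10.8% of windows and in none of the 7. These are matches of letters, and no binding was measured.

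By annotation (GENCODE M21, GRCm38), Prtn3 (chr10:79874476-79883174) and Elane (chr10:79886247-79888215) lie 3072 bases apart on the same strand, and Prtn3 overlaps Plppr3 on the other strand. The Prtn3 promoter window above (chr10:79879417-79879716) lies inside this annotated gene. Motif positions were counted from the RefSeq start, which for Prtn3 is not the annotated gene start. Lyz2 (chr10:117277331-117282321) lies 5475 bases from Lyz1, a near-identical copy, so reads of that pair may have been split and the Lyz2 values are uncertain to that extent. Cebpa (chr7:35119293-35121928) and Mpo (chr11:87793581-87804413) overlap antisense genes, and the sources used here do not give whether the counting used strand. Spi1 is at chr2:91082390-91115756, Tyrobp at chr7:30413760-30417585, Fcer1g at chr1:171229572-171234365 and Ctsg at chr14:56099881-56102574.

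Library totals ran between 2172087 and 42245455 counts. The libraries were of 2 sizes, and several results below rest on the larger ones: the 33 libraries with batch titles 1 to 33 held 5 to 10 cells each, and the 7 with titles 34 to 40 held 16 to 59. Titles 34 to 40 are E10.0 replicate 9, E9.5 replicates 9 and 10, E8.5 replicate 10, E9.0 replicate 9 and both E8.0 libraries. Levels are CPM, a library's summed counts of a gene scaled to its total, so fewer cells of a type and less RNA per cell cannot be told apart. Shares are of cells with a count after every cell was thinned to 100000 counts. In 245 of 780 pairs the libraries shared a cell barcode number, and 0 cell columns were identical. The endothelial label was borne out in part: the summed pan-endothelial markers were above 0 in every library but ranged between 483 and 10968 CPM, and cells with erythroid and megakaryocyte genes were present.

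Spi1 was counted at every stage, and over all libraries its median was lowest at E10.0. Its 2 libraries of E8.0 had 26.1 and 31.5 CPM. At E8.5 the 10 libraries spanned 13.7 to 142 CPM (median 46.6), at E9.0 the 9 spanned 5.39 to 174 (median 69.1), at E9.5 the 10 spanned 0 to 61.8 (median 22.6), and at E10.0 8 of 9 were at 0 and replicate 9 had 51.2. The means in falling order were 72.3 ± 65.6 CPM at E9.0, 65.8 ± 53.1 at E8.5, 28.8 ± 3.82 at E8.0, 24.02 ± 16.1 at E9.5 and 5.68 ± 17.05 at E10.0 (SD), and the library ranges of every pair of neighbours in that order overlapped. Spi1 was in 48.7% of cells at E8.0, 51.6% at E8.5, 38.4% at E9.0, 39.2% at E9.5 and 1.39% at E10.0, as means over libraries. The larger libraries ran the other way: within batch titles 34 to 38 Spi1 had 13.7 CPM at E8.5, 5.39 at E9.0, 11.6 and 0 at E9.5 and 51.2 at E10.0. Mpo, Prtn3, Lyz2 and Tyrobp were likewise highest at E10.0 among these 5 libraries, which hold 1 or 2 a stage and allow no test.

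**Figure D1:**
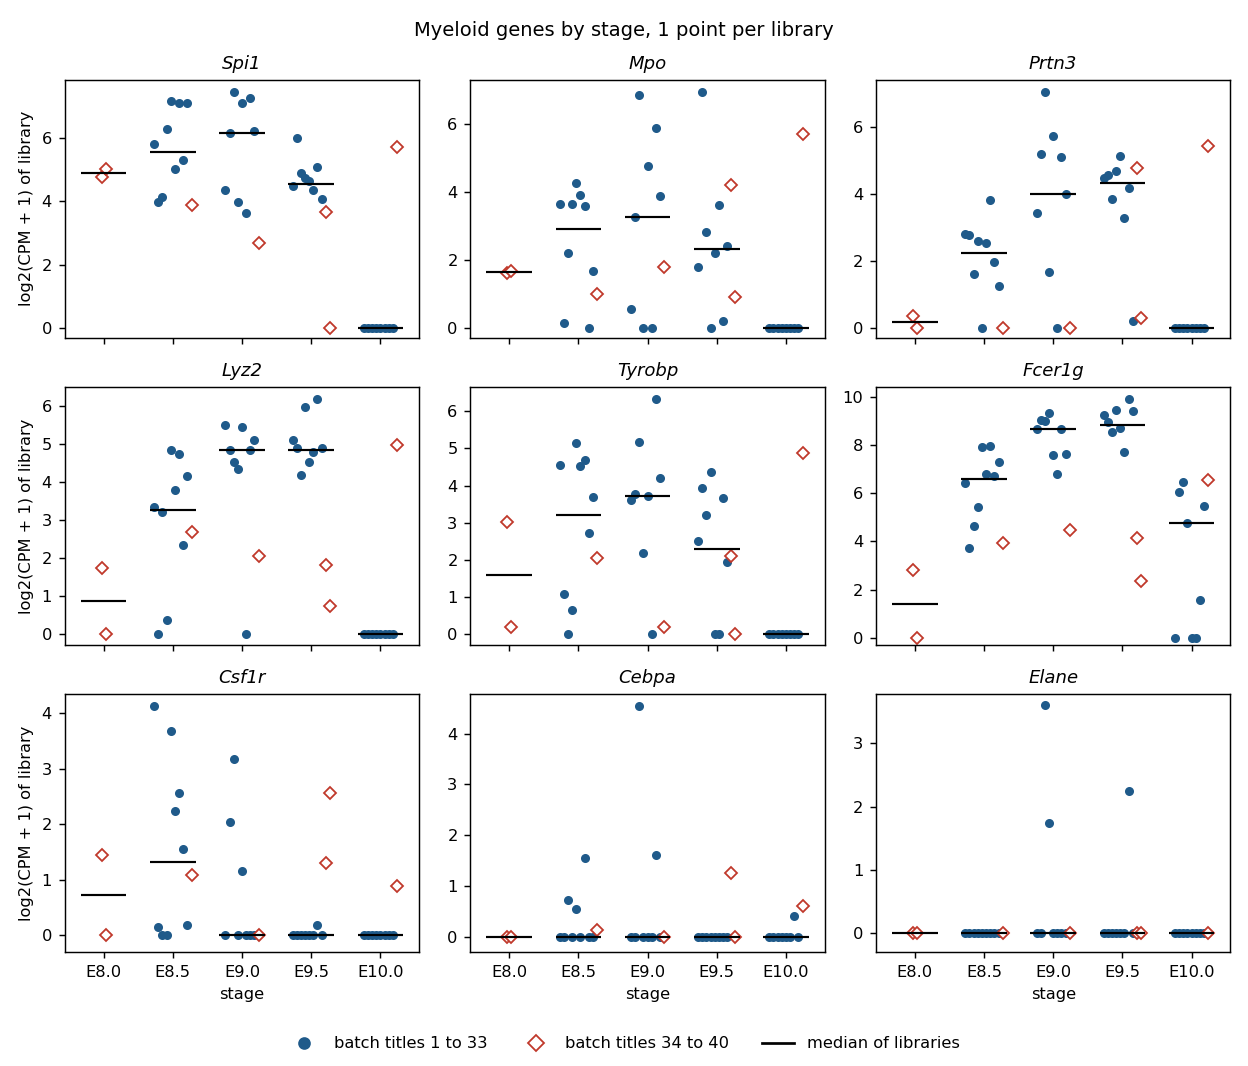
Level of 9 of the 10 genes in each of 40 libraries, as log2(CPM + 1) on the vertical axis against stage on the horizontal axis (Ctsg was at 0 throughout). Points are libraries, open diamonds those with batch titles 34 to 40, and lines are medians of libraries; at E10.0 the 1 diamond, replicate 9, holds all the Spi1, Mpo, Prtn3, Lyz2, Tyrobp and Csf1r of the stage.

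Cebpa was close to absent. It was at 0 in both E8.0 libraries, at most 1.95 CPM at E8.5, and above 2 CPM in only 2 E9.0 libraries, replicate 3 with 22.4 and replicate 7 with 2.05. In 478 cells it was found in 8 after thinning, 5 of them with Spi1.

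Among the granule genes, Mpo, Prtn3 and Lyz2 were found from E8.5 to E9.5, Elane in 3 libraries only, and Ctsg in none. Mpo had 2.07 and 2.20 CPM at E8.0, then 0 to 18.2 (median 7.32) at E8.5, 0 to 115 (median 8.70) at E9.0 and 0 to 124 at E9.5, and at E10.0 it was at 0 in 8 libraries with 51.3 in replicate 9. Prtn3 had 0.275 and 0 CPM at E8.0, then 0 to 13.1 at E8.5, 0 to 131 (median 14.9) at E9.0 and 0.159 to 33.7 at E9.5, and at E10.0 replicate 9 had 41.9 with the other 8 at 0. Lyz2 had 2.34 and 0 CPM at E8.0, then 0 to 27.4 (median 8.61) at E8.5, 0 to 44.4 (median 27.6) at E9.0 and 0.665 to 71.9 at E9.5, and at E10.0 30.1 in replicate 9 and 0 in the other 8. All 3 had libraries under 1 CPM at E8.5, E9.0 and E9.5, and the ranges of those stages overlapped. Elane, the neutrophil elastase gene, reached 11.1 and 2.34 CPM in E9.0 replicates 3 and 4 and 3.74 in E9.5 replicate 7.

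Among the receptor genes, Fcer1g was the broadest and Csf1r the rarest. Fcer1g had 5.99 and 0 CPM at E8.0, 12.3 to 246 (median 95.2) at E8.5, 21.5 to 647 (median 401) at E9.0, 4.14 to 969 (median 453) at E9.5 and 0 to 92.7 (median 26.4) at E10.0. Its share of cells was 7.32% at E8.0, 44.4% at E8.5, 60.5% at E9.0, 76.6% at E9.5 and 17.9% at E10.0. Within batch titles 34 to 38 the order was another one, with 14.1 CPM in the E8.5 library, 21.5 in the E9.0 library, 16.6 and 4.14 in the E9.5 libraries and 92.7 in the E10.0 library. The summed megakaryocyte markers moved with this split: at E9.5 they spanned 5260 to 20326 CPM in batch titles 1 to 33 and 74.0 to 80.5 CPM in the other 2 libraries, and their part in the Fcer1g result was not tested.

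Tyrobp had 7.09 and 0.130 CPM at E8.0, then 0 to 34.4 (median 8.69) at E8.5, 0 to 80.2 (median 12.04) at E9.0 and 0 to 19.6 (median 3.96) at E9.5, and at E10.0 28.3 in replicate 9 with the other 8 at 0. Csf1r was above 0 in 8 of 10 E8.5 libraries, between 0.111 and 16.6 CPM, and in 3 of 9 E9.0, 3 of 10 E9.5 and 1 of 9 E10.0 libraries, with a highest value of 8.04 CPM outside E8.5. Of the 12 macrophage markers, C1qa and Cd14 were at 0 at every stage, and Adgre1 (F4/80) had 6 counts in 1 library of E9.5 and 0 at the other stages. The list was not absent as a whole: its sum had a median of 581 CPM at E10.0 and 61.2 CPM at E8.5. Most of that was the mannose receptor Mrc1, which endothelial cells also express, with medians of 579 CPM at E10.0 and 53.8 CPM at E8.5.

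The comparisons between stages asked how the genes differ from 1 time to the next, with edgeR's quasi-likelihood test and Benjamini-Hochberg adjustment over 13929 genes, 9 of the 10 members among them (Ctsg failed the filter on low counts). Members that passed the filter are those with counts in at least some libraries, so their number is no support in itself. No member was called between E8.5 and E8.0, where 0% of all genes were called (0 by edgeR, 430 at an unadjusted p under 0.05, and 40 by DESeq2). Fcer1g was the 1 member with an unadjusted p under 0.05 there, with a log2 fold of 5.01 and an adjusted p of 1. No member was called between E9.0 and E8.5, where 0.524% of genes were (73 genes), nor between E9.5 and E9.0, where 0% were (0 by edgeR, 1073 at an unadjusted p under 0.05, and 5 by DESeq2). At an unadjusted p under 0.05 there were 3 members in E9.0 over E8.5, Elane (6.54), Prtn3 (2.87) and Fcer1g (1.69), and 1 in E9.5 over E9.0, Cebpa (-3.98), and DESeq2 called 0 members in these comparisons.

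E10.0 was the stage at which members passed the test. In E10.0 over E9.5, 26.8% of genes were called and 16.4% were called lower. Of the 9 members tested, 2 were called, both lower: Fcer1g by a log2 fold of -3.74 (SE 0.890, adjusted p = 0.00228) and Lyz2 by -3.005 (SE 1.09, adjusted p = 0.0370). The median log2 fold was -1.91 over the 9 and -0.05 over all genes. In E10.0 over E8.5, 31% of genes were called and 15.8% lower, and 2 members were called, again both lower: Spi1 by -3.35 (SE 0.982, adjusted p = 0.00876) and Csf1r by -4.78 (SE 1.69, adjusted p = 0.0280). There the median was -1.54 over the members and 0.04 over all genes. A share of 2 in 9 is close to the share of all genes called in both comparisons. The other members had log2 folds between -4.79 and -0.45 in E10.0 over E9.5 and between -1.85 and 0.28 in E10.0 over E8.5, with adjusted p of 0.0778 and above in both. The 2 comparisons share the E10.0 libraries.

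Those 4 calls ended when libraries of consecutive batch titles were summed into 1 replicate (13 runs): Spi1 then had -1.62 (adjusted p = 0.611), Csf1r -3.55 (0.432), Fcer1g -3.02 (0.392) and Lyz2 -1.37 (0.707), each from edgeR's quasi-likelihood test with Benjamini-Hochberg adjustment. The Csf1r call also ended without E8.5 replicate 1 (-4.21, adjusted p = 0.0567). The Lyz2 call ended without any 1 of E10.0 replicates 1 to 8 or of E9.5 replicates 4 and 7, with adjusted p between 0.0527 and 0.0677.

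A single library set how many members differed. Without E10.0 replicate 9, 6 members were called in each of the E10.0 comparisons, all lower, beside 18% of genes called lower than at E9.5 and 17.4% lower than at E8.5. In batch titles 1 to 33 alone (a comparison chosen after seeing the data), all 6 members that passed the filter there, Spi1, Mpo, Prtn3, Lyz2, Tyrobp and Fcer1g, were lower at E10.0 than at E9.5, beside 21.2% of genes called lower, and lower than at E8.5, beside 19.8%. The first 5 had 0 counts in all 50 cells of the 8 E10.0 libraries, so they passed the filter only through other stages and could only come out lower. The same holds for these 5 without replicate 9, which leaves the same 8 E10.0 libraries. The number of members called lower is therefore no support in either comparison. In these 8 libraries 3 counts over the group would be 0.117 CPM. Against that floor, E10.0 was lower than E9.5 by at least 237-fold for Spi1, 142-fold for Mpo, 151-fold for Prtn3, 310-fold for Lyz2 and 57.2-fold for Tyrobp. Each bound uses counts pooled over the libraries of the earlier stage. For Mpo that pool had 766 counts (16.7 CPM, against a library median of 3.97), and 444 of them came from 1 cell of E9.5 replicate 2. In the larger libraries the order was reversed: E10.0 replicate 9, against E9.5 replicates 9 and 10, had 51.2 CPM of Spi1 against 11.6 and 0, 51.3 of Mpo against 17.5 and 0.887, 41.9 of Prtn3 against 26.4 and 0.222, 30.1 of Lyz2 against 2.52 and 0.665, and 28.3 of Tyrobp against 3.31 and 0. In batch titles 1 to 33 E10.0 was also lower than E8.5 by at least 559-fold for Spi1, 61.6-fold for Mpo, 37.8-fold for Prtn3, 94.7-fold for Lyz2, 113-fold for Tyrobp and 37.4-fold for Csf1r. Of the 287 Csf1r counts of E8.5 in this set, 132 came from 1 cell of replicate 1. Fcer1g was not at 0: its 8 E10.0 libraries spanned 0 to 87.5 CPM (median 14.2), against 206 to 969 (median 550) in 8 E9.5 libraries, with no overlap, and 12.3 to 246 (median 105) in 9 E8.5 libraries, with overlap.

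In E10.0 replicate 9, 2 of 32 cells held nearly all of the myeloid counts. The first, with 1892575 counts in all, had 486 Spi1, 723 Mpo, 338 Prtn3, 183 Lyz2 and 273 Tyrobp counts. The second, with 1555702, had 285 Spi1, 34 Mpo, 297 Prtn3, 248 Lyz2 and 118 Tyrobp counts. Both also had Runx1, the factor of hemogenic endothelium (273 and 267 counts), the platelet receptor gene Gp9 (146 and 108) and the endothelial cadherin Cdh5 (30 and 62). A further cell had 11 Spi1, 28 Lyz2 and 29 Tyrobp counts with 177 of Runx1 and 273 of Cdh5.

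Other myeloid genes, from 3 lists that take in the pathway around the 10, had calls in both directions. In E10.0 over E8.5, where 31% of all genes were called and 15.8% lower, 2 of 11 listed factors tested were called higher (Id2, an inhibitor of helix-loop-helix factors, 3.11, and Klf4 3.08) and 2 lower (Runx1 -4.23, adjusted p = 0.000462, and Myb -3.37, adjusted p = 0.0201, from edgeR). Of 13 granule and phagocyte oxidase genes tested, 5 were higher and 4 lower. Oxidase subunits went both ways: Ncf1 and Ncf4 were called lower, with log2 folds of -3.36 and -6.16, and Cyba was called higher, with 0.646. The granulocyte-progenitor gene Ms4a3 had -5.48, while Hdc, which makes histamine, had 6.87, the serpin Serpinb1a 6.08 and Srgn 2.29. Of 21 receptor and signalling genes tested, 3 were higher, among them the mannose receptor Mrc1 (2.89) and Cd93 (2.86), and 8 were lower, among them the cytokine receptor chain Csf2rb (-6.37), the integrin Itgb2 (-5.51), the phosphatase Ptpn6 (-3.23), Vav1 (-3.18), the Fc receptor Fcgr3 (-2.79) and Csf3r (-2.79). The list medians were 0.19, 0.05 and -1.56, against 0.04 over all genes. In E10.0 over E9.5 the counts higher and lower were 2 and 2, 1 and 6, and 2 and 9. With libraries of consecutive batch titles summed, 0 genes of the 3 lists were called in either comparison, beside 40 and 0 of all genes in E10.0 over E8.5 and over E9.5.

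Markers of other cell types moved with the same comparison. In E10.0 over E8.5, beside the 31% of all genes called, 13 of 15 pan-endothelial and 10 of 10 arterial markers were called higher, while 7 of 10 hemogenic, 9 of 10 erythroid and 10 of 12 megakaryocyte markers were called lower. In batch titles 1 to 33 alone the counts were 14 of 15 and 8 of 8 higher and 7 of 9, 8 of 9 and 10 of 12 lower, and with consecutive titles summed 0 markers of these lists were called. The summed pan-endothelial markers spanned 6537 to 10968 CPM at E10.0, against 1406 to 4680 CPM at E8.5, with no overlap. The summed hemogenic markers spanned 414 to 1194 CPM at E10.0, against 454 to 1462 CPM at E8.5, with overlap. Their part in the member results was not tested.

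Across the 478 thinned cells, 215 had none of the 10 genes and 141, in 31 libraries, had Spi1. Most cells with a granule gene also had Spi1: 43 of 62 with Prtn3, 40 of 67 with Mpo, 69 of 88 with Lyz2 and 3 of 3 with Elane. The same held for 48 of 65 cells with Tyrobp and 14 of 21 with Csf1r, but for 94 of 177 with Fcer1g. Read the other way, 28.4% of cells with Spi1 had Mpo, against 8.01% of the 337 without, and for Prtn3 the shares were 30.5% and 5.64%, for Lyz2 48.9% and 5.64%, for Tyrobp 34.04% and 5.04%, and for Fcer1g 66.7% and 24.6%. Before thinning, cells with Spi1 had a median of 756537 counts, against 524914 without.

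In the 237 cells of batch titles 1 to 33 alone, also a choice made after seeing the data, 90 had Spi1 and the sharing was closer for Mpo. There 33 of 37 cells with Mpo, 38 of 47 with Prtn3, 58 of 75 with Lyz2, 38 of 42 with Tyrobp and 79 of 131 with Fcer1g had Spi1. Mpo was in 36.7% of cells with Spi1, against 2.72% of cells without.

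**Figure D2:**
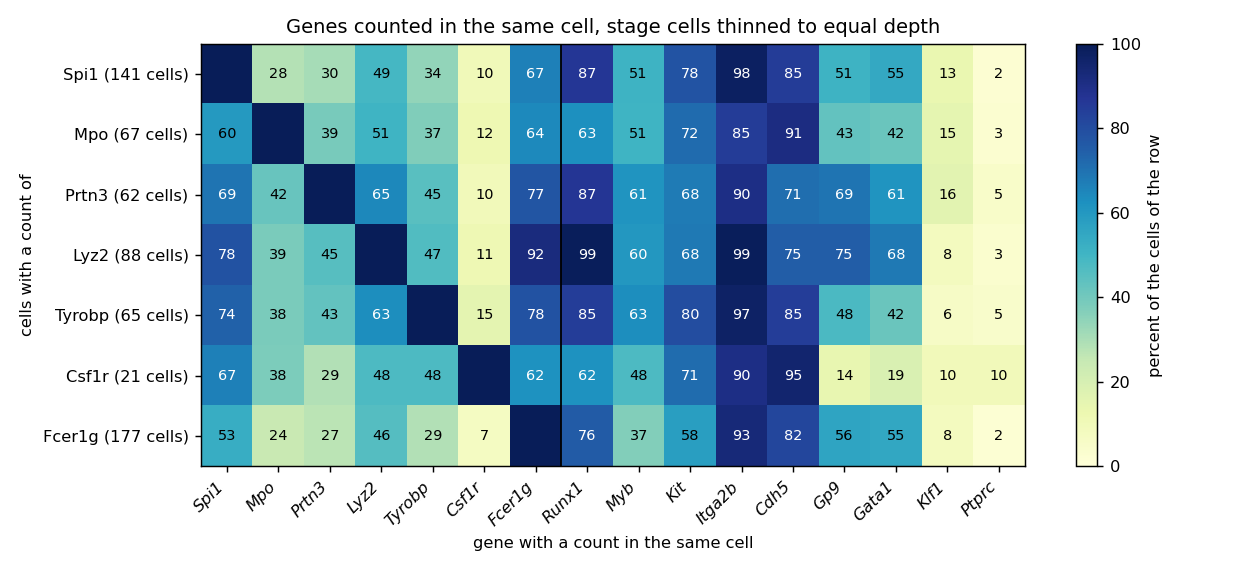
Percent of the cells with each row gene (number in brackets) in which the column gene also had a count, after thinning; the line separates the myeloid genes from genes of other lineages. Of 141 cells with Spi1, 69 had Lyz2, 122 had Runx1 and 120 had Cdh5, and 3 had the leukocyte gene Ptprc.

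The cells with Spi1 also had counts of endothelial and progenitor genes. Of the 141, 120 had Cdh5, 133 the VEGF receptor Kdr, 122 Runx1, 138 the integrin Itga2b (CD41), 110 Kit, 79 Cd44 and 72 Myb, while 9 had the arterial connexin Gja5, 3 Ptprc (CD45), 1 the microglial and monocyte receptor Cx3cr1 and 0 C1qa or Adgre1. Megakaryocyte and erythroid genes were also found, with Gp9 in 72 and Gata1 in 77 of the 141. Set against the share of all 478 cells, Cdh5 was in 85.1% of cells with Spi1 against 91.2%, Pecam1 in 87.9% against 93.5%, Kdr in 94.3% against 92.5% and Runx1 in 86.5% against 44.6%. Across the 478 cells, which share libraries and depth, the correlation of log2(CPM + 1) with Spi1 was -0.38 for Cdh5, -0.37 for Pecam1, -0.35 for Kdr and 0.60 for Runx1.

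What accompanied Spi1 differed by stage. At E8.0, 23 of 29 cells with Spi1 had none of Mpo, Prtn3 and Lyz2, as did 19 of 52 at E8.5, 6 of 27 at E9.0, 7 of 29 at E9.5 and 0 of 4 at E10.0. Lyz2 was in 10.3% of cells with Spi1 at E8.0, 46.2% at E8.5, 66.7% at E9.0 and 72.4% at E9.5. Fcer1g was in 17.2%, 61.5%, 96.3% and 96.6% at the same 4 stages. Of the 41 cells that had Mpo or Prtn3 without Spi1, 26 were of E9.5. The mix of larger and smaller libraries also differed by stage, and its part was not tested. Both E8.0 libraries were larger ones, and the larger E9.5 replicates 9 and 10 held 25 and 29 of the 110 cells of that stage. These are counts of cells pooled over libraries, with no test, and the median counts per cell with Spi1 were 416974 at E8.0 and 775367, 956650 and 878108 at E8.5, E9.0 and E9.5 before thinning.

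At E8.0 the column names carry the marks 41posi (18 cells of 1 library) and 41neg (39 cells of 2). Spi1 had a count in 12 of the 18 cells marked 41posi (66.7%) and in 17 of the 39 marked 41neg (43.6%). The other members did not all follow it: Fcer1g had a count in 5 of the 18 and 1 of the 39, Lyz2 in 3 and 0, Tyrobp in 3 and 7 (16.7% and 17.9%) and Mpo in 0 and 3. Itga2b, the gene of CD41, had a count in 18 of the 18 and 37 of the 39, and the labels do not say what the marks stand for. These cells are of 2 libraries, with no test, and the median counts per cell were 401914 and 306416.

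Many members met in few cells. Spi1, Mpo and Prtn3 were together in 21 cells of 14 libraries, and 5 or more members in 38 cells of 22 libraries, 13 of E8.5, 12 of E9.0, 11 of E9.5 and 2 of E10.0. One cell, of E9.0 replicate 3 with 743790 counts, had 9 of the 10 members before thinning: 808 CPM of Prtn3, 648 of Fcer1g, 488 of Mpo, 406 of Spi1, 109 of Tyrobp, 104 of Elane, 83.4 of Cebpa, 76.6 of Csf1r and 6.72 of Lyz2. The highest Spi1 level was in another cell, of E8.5 replicate 10, with 906 CPM of Spi1, 412 of Lyz2, 331 of Tyrobp and 94.2 of Csf1r, but 38.2 of Mpo and 0 of Prtn3.

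The Spi1 comparison was then made within libraries, by summing cells with and cells without a thinned Spi1 count in each of the 15 libraries that held 3 or more of each. Median CPM with and without Spi1 was 9.79 and 0 for Prtn3, 6.74 and 0 for Mpo, 22.5 and 0.384 for Lyz2, 13.02 and 0 for Tyrobp, and 254 and 8.93 for Fcer1g. Prtn3, Mpo and Lyz2 were each higher with Spi1 in 12 of 15 libraries, Tyrobp in 11, Fcer1g in 10 and Csf1r in 7, with lower values in 1, 1, 2, 2, 4 and 0.

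**Figure D3:**
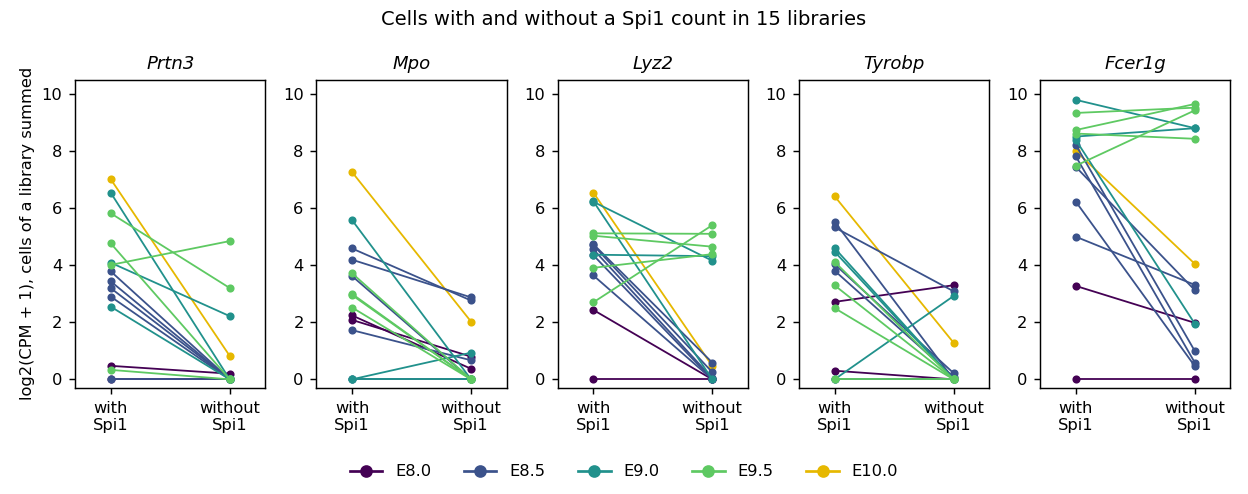
Summed level of 5 members in cells with and without a Spi1 count, as log2(CPM + 1), with 1 line per library coloured by stage (15 libraries). Lines for Prtn3, Mpo and Lyz2 slope down from cells with Spi1 to cells without in 12 libraries each; several E9.5 lines for Lyz2 and Fcer1g are flat or slope up.

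With the library as a block and 9446 genes tested, edgeR's quasi-likelihood test called 0 of the 5 members that passed the filter (5 at an unadjusted p under 0.05), beside 0.0212% of all genes (2 genes by edgeR, 1310 at an unadjusted p under 0.05, and 610 by DESeq2). The log2 folds of cells with Spi1 over cells without were 5.41 for Tyrobp (SE 1.21, adjusted p = 0.0693), 5.02 for Prtn3 (SE 0.951, adjusted p = 0.0621), 3.94 for Mpo (SE 0.889, adjusted p = 0.0706), 3.84 for Lyz2 (adjusted p = 0.152) and 2.32 for Fcer1g (adjusted p = 0.235). All 5 were called higher by DESeq2, by edgeR with no filter on low counts and when libraries with only 2 cells on a side were let in, beside 1.7%, 0.667% and 6.79% of genes called higher. In cells without Spi1 the median was 0 CPM for Prtn3, Mpo and Tyrobp and 0.384 for Lyz2. These members thus entered the tests mostly through cells with Spi1, and the number called higher is no support in itself. The 2 called genes were Def6, an exchange factor of immune cells (2.09, adjusted p = 0.0288), and the endothelial and lymphoid factor Ets1 (-1.59, adjusted p = 0.0129).

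A second split, by Gp9, asked which members are found in cells with a platelet receptor transcript, in 5 libraries. These were E8.0 replicate 1, E8.5 replicates 3, 6 and 8 and E10.0 replicate 9, with none of E9.0 or E9.5. Of 9469 genes, 5.4% were called, and 0 of the 5 members tested were (1 at an unadjusted p under 0.05; DESeq2 called Fcer1g and Prtn3). Fcer1g, the partner chain of Gp6, had a median of 111 CPM with Gp9 and 21.3 without, was higher in 4 of 5 libraries, and had a log2 fold of 2.36 (SE 0.827, adjusted p = 0.151 from edgeR). Cells that held Fcer1g, Gp9 and Gp6 together numbered 35, of which 11 were of E9.0 and 24 of E9.5, so none of them was in this split. Genes called higher with Gp9 included the mucin Muc13 (6.54) and the granule proteoglycan Srgn (5.08), and those called lower included Snx24 (-7.28). Of the megakaryocyte markers 4 of 8 tested were higher with Gp9, and of the pan-endothelial markers 12 of 15 were lower.

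The genes whose levels across the 478 cells were most like a member's, by Pearson's r of log2(CPM + 1) over 12241 genes, are a description: the cells share libraries and depth. For Spi1 they were Laptm5, Alox5 and Runx1 (r of 0.60 each) and Myb and Def6 (0.59 each). For Mpo they were Nfam1 (0.47), Fmnl1 (0.45), Cd52 (0.44), Arhgap9 (0.43) and Myb (0.42). For Tyrobp they were Fmnl1 (0.54), Apbb1ip (0.52) and Traf3ip3, Arhgap30 and Bcl11a (0.51 each).

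In clusters made from 2000 variable genes without the 10 members, cluster 3 had the highest share of cells for Spi1, Lyz2, Tyrobp, Prtn3, Mpo and Csf1r, and cluster 5 for Fcer1g. Cluster 3, hemogenic-like, had 63 cells of 28 libraries, was led by Adgrg1, Plek, Runx1, Plcg2 and Rac2, and also had 3 megakaryocyte markers among its 50 leading genes. In it, Spi1 was found in 93.7% of cells, Fcer1g in 92.1%, Lyz2 in 84.1%, Tyrobp in 63.5%, Prtn3 in 52.4%, Mpo in 49.2% and Csf1r in 15.9%. Cluster 5, megakaryocyte-like with 55 cells, had Fcer1g in 98.2%, Lyz2 in 52.7%, Spi1 in 43.6%, Prtn3 in 23.6% and Mpo in 7.27%. Of all cells with a gene, cluster 3 held 41.8% for Spi1, 46.3% for Mpo, 53.2% for Prtn3, 60.2% for Lyz2, 61.5% for Tyrobp and 32.8% for Fcer1g, so many cells with each lay elsewhere, and 2 of the 3 with Elane were in cluster 5. Mpo was thinly spread, with 6.90% to 17.4% of cells in the other 8 clusters. The arterial endothelial-like cluster 9 had Mpo in 4 of 23 cells (17.4%), the highest share of those 8. By level it was the lowest of all clusters, with a pooled 1.34 CPM of Mpo, against 52.3 CPM in cluster 3. After thinning, cluster 9 had Prtn3 and Lyz2 in none of its cells. Before thinning each had a count in 2 of the 23 cells, at a pooled 0.25 and 0.17 CPM. The median was 467090 counts a cell in cluster 9, against 933013 in cluster 3.

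**Figure D4:**
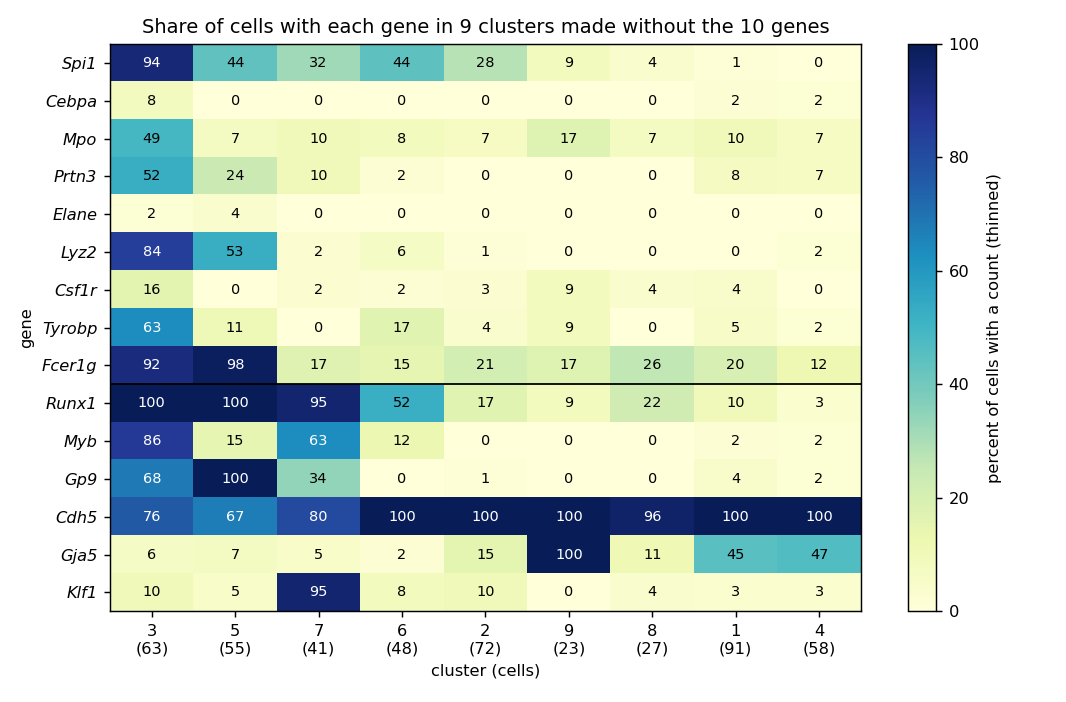
Percent of cells with a count after thinning, for 9 members and 6 genes of other lineages (rows, below the line) in 9 clusters (columns, number of cells in brackets). Cluster 3 is the darkest column for Spi1 (93.7%), Lyz2 (84.1%) and Mpo (49.2%), while Fcer1g is as frequent in cluster 5 (98.2%) as in cluster 3 (92.1%).

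In the sorted cells, with 1 sample a group and so no test, the 3 samples had different sets of these genes. Gja5 followed the labels, with 768, 1273 and 0.12 CPM in Gja5+Cd44+ CR, Gja5+Cd44+ YS and Gja5-Cd44+ YS cells. Cd44 differed in level between samples that are all labelled Cd44+, with 275, 313 and 73.2 CPM in the same order. Before thinning it had a count in 43 of 44, 50 of 50 and 33 of 36 cells. Spi1 had 95.7 CPM in Gja5+Cd44+ CR cells (95% Poisson interval 89.5 to 102, counting error only), 2.98 (2.06 to 4.16) in Gja5+Cd44+ YS cells and 40.1 (35.96 to 44.7) in Gja5-Cd44+ YS cells. The 34 counts of the Gja5+Cd44+ YS sample came from 1 cell. Spi1 had a count in 31 of 44, 1 of 50 and 19 of 36 cells of these samples before thinning and in 23 of 32, 1 of 37 and 12 of 24 cells after thinning to 100000 counts, which leaves out shallower cells. The other counts of sorted cells below are without thinning, and the median counts per cell were 163164, 175608 and 174632.

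Gja5+Cd44+ YS cells had less of every member detected than Gja5-Cd44+ YS cells. Lyz2 had 8.41 CPM in the Gja5+Cd44+ YS sample and 87.6 in the Gja5-Cd44+ YS sample, Mpo 1.40 and 16.5, and Fcer1g 23.4 and 69.6. Prtn3 and Csf1r had 0 counts in the Gja5+Cd44+ YS sample, against 227 and 158 counts in the Gja5-Cd44+ YS sample, at least 104-fold and 72.1-fold lower against a floor of 3 counts. Single cells carried much of these sums. Without the cell that had the most counts of the gene, Lyz2 had 2.04 CPM in the Gja5+Cd44+ YS sample and 54.4 in the Gja5-Cd44+ YS sample, Mpo 0.089 and 12.4, and Fcer1g 14.2 and 48.2. In the Gja5-Cd44+ YS sample Prtn3 then had 15.7 CPM, against 27.2 with it, and Csf1r 3.82, against 18.9. Cebpa, Elane and Ctsg had 0 counts in all 3 samples.

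Gja5+Cd44+ CR cells had Spi1 without Fcer1g. Fcer1g had 0 counts in 44 Gja5+Cd44+ CR cells, at least 71.3-fold lower than in the Gja5+Cd44+ YS sample, and against the Gja5-Cd44+ YS sample it was at least 212-fold lower. Lyz2 had 39.1 CPM and Mpo 10.2 CPM in Gja5+Cd44+ CR cells (28.04 and 4.83 without the top cell of each), between the levels of the yolk sac samples, and Csf1r had 0 counts and Tyrobp 2. Of the 31 Gja5+Cd44+ CR cells with Spi1, all 31 had Runx1 and Cdh5, 20 had Lyz2, 8 Mpo, 4 Prtn3 and 0 Fcer1g. Of the 19 Gja5-Cd44+ YS cells with Spi1, 19 had Fcer1g and Cdh5, 17 Runx1, 16 Mpo, 15 Lyz2, 9 Prtn3, 9 Csf1r and 7 Tyrobp. Cells with 3 or more members numbered 10 of 44 in Gja5+Cd44+ CR, 2 of 50 in Gja5+Cd44+ YS and 25 of 36 in Gja5-Cd44+ YS. The macrophage genes C1qa, Adgre1 and Cx3cr1 were at 0 in all 3 samples, but Mrc1 had 0.33 CPM in Gja5+Cd44+ CR cells (3 of 44 cells), 295 in Gja5+Cd44+ YS cells (47 of 50) and 289 in Gja5-Cd44+ YS cells (36 of 36). Embryonic globin moved with part of this: Hba-x had 55.6, 9651 and 4894 CPM in the 3 samples in the same order, and its part was not tested.

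**Figure D5:**
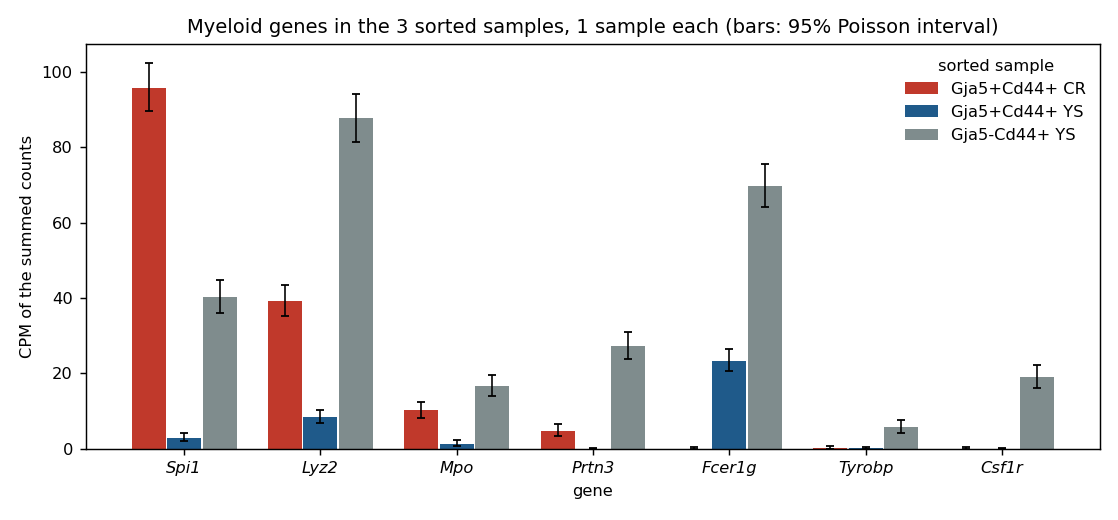
Summed CPM of 7 members in the 3 sorted samples (44, 50 and 36 cells), with bars for the level and error bars for the 95% Poisson interval, which covers counting error only. Spi1 is highest in Gja5+Cd44+ CR cells (95.7 CPM), where Fcer1g is at 0, while Lyz2, Prtn3, Fcer1g and Csf1r are highest in Gja5-Cd44+ YS cells.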

How the data were processed

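The series holds 40 yolk sac stage libraries and 3 sorted samples of single cells, made with a modified STRT protocol with oligo-dT priming, cell barcodes and molecular identifiers, per the labels' protocols. The authors deposited whole-number counts per gene and cell, on genome build mm10 per the submitters' processing notes. The sources used here give no aligner, counting tool, deduplication step or use of strand. Intervals and floors cover counting error only. From the sorted samples, 95 rows of spike-in and RGC RNA, 3.246% of counts, were removed. All 478 stage cells and 130 sorted cells passed a filter of 1000 genes and 5000 counts, and no doublet caller was run.

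Counts were summed per library, given as CPM, and tested with edgeR 4.0.16 (quasi-likelihood, TMM, filterByExpr, all 40 libraries in 1 fit, adjusted p under 0.05) in R 4.3.3. For shares and for the splits by Spi1 and Gp9, cells were thinned to 100000 counts (seed 1), which left 478 stage and 93 sorted cells; a library entered with 3 or more cells on each side, with the library as a block, and the gene of the split was left out. Clusters came from scanpy 1.11.5 (30 components, 15 neighbours, resolution 1), named where at least 3 markers were among the 50 leading genes. Sorted samples have exact Poisson intervals at 95%, and a floor of 3 counts. The tests were tested on simulated data. Alternatives were DESeq2 1.42.0, other size factors, no filter, summed runs of libraries, other gates and leaving out each library.

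The members, lists and named genes were chosen with earlier results of these data known. All 10 members are named; of the listed myeloid genes, those called in E10.0 over E8.5 are, at most 8 a list, and 1 of them is not reported here; of the Gp9 split, some of the largest folds.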

Additional observations from a re-analysis of the deposited data

Results flagged for a closer look

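A library lay far from the others of its stage, by Dixon's test at the 95% level, in 19 of 34 groups of a gene and a stage. In each of the 19 the library was the highest. The rule marks about 1 in 20 groups by chance only where values are normally spread, and these CPM are skewed with many zeros. A group with 1 library above 0, such as Elane at E9.5, is marked whatever the level, so the 19 cannot be set against that share. E10.0 replicate 9, the library of 32 cells, was such a library for Spi1 (51.2 CPM), Mpo (51.3), Prtn3 (41.9), Lyz2 (30.1), Csf1r (0.845) and Tyrobp (28.3), with the other 8 libraries at 0 for each. E9.0 replicate 3 was for Cebpa (22.4 CPM), Mpo (115), Prtn3 (131), Elane (11.1) and Csf1r (8.04), and it holds the cell with 9 members. E9.0 replicate 7 was for Tyrobp, with 80.2 CPM. At E9.5 the libraries were replicate 2 for Spi1 (61.8 CPM) and Mpo (124), replicate 7 for Elane (3.74), replicate 9 for Cebpa (1.39) and replicate 10 for Csf1r (4.88). At E8.5 replicate 7 was for Cebpa (1.95 CPM) and Prtn3 (13.1). The cause was not tested in any of them.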

How the results depend on the processing

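No paired analysis was possible for the stages because the labels give their libraries no replicate numbers, and the numbers used here only name libraries within a stage; the splits by Spi1 and Gp9 pair cells of a library, and with no replicate block they called 1 and 258 genes, against 2 and 511 with it. Leaving out 1 library at a time gave 0 to 2 genes called in E8.5 over E8.0, 39 to 80 in E9.0 over E8.5, 0 to 1 in E9.5 over E9.0, 3200 to 4438 in E10.0 over E9.5 and 3966 to 4518 in E10.0 over E8.5, with 1 to 6 members called in both E10.0 comparisons and 0 in the others; the Spi1 split gave 1 to 56 genes and 0 to 1 members, the Gp9 split 241 to 399 and 0 to 1. The counts of the Spi1 split were highest without E9.5 replicate 1 (56), E8.5 replicate 10 (31), E9.0 replicate 4 (12) or E8.0 replicate 1 (8), and 1 member was called without any 1 of the last 3; the Gp9 split was lowest without E8.0 replicate 1 (241) or E8.5 replicate 6 (296), and 1 member was called without E8.5 replicate 3. E9.0 over E8.5 gave 39 to 48 genes without E9.0 replicate 1 or any 1 of E8.5 replicates 1 to 5 and 8. DESeq2 called 40 genes in E8.5 over E8.0, 130 in E9.0 over E8.5 and 5 in E9.5 over E9.0. Summed runs gave 1 gene in E9.0 over E8.5, 0 genes and 0 members in E10.0 over E9.5, and 40 genes and 0 members in E10.0 over E8.5, with 13 samples in place of 40. Batch titles 1 to 33 alone, added after seeing the data, gave 277 genes in E9.5 over E9.0 and 6 members in each E10.0 comparison. The Spi1 split called 319 genes and 5 members with no filter, 610 and 5 by DESeq2, 6 genes without thinning, 114 genes and 2 members at 10 CPM, and 1371 genes and 5 members with at least 2 cells a side. The Gp9 split called 807 genes and 2 members with no filter, 1301 and 2 by DESeq2, 264 genes without thinning, and 1194 genes and 1 member with at least 2 cells a side. The cause of these shifts was not tested.

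Signs turned for members not called. By DESeq2, Cebpa in E9.0 over E8.5 became -0.38 and Elane in E10.0 over E9.5 became 0.88; with summed runs Mpo and Tyrobp in E10.0 over E9.5 became 0.15 and 0.79, and Lyz2 and Mpo in E10.0 over E8.5 became 0.0045 and 1.66; in batch titles 1 to 33 Prtn3 in E10.0 over E8.5 became -7.73. Leaving out 1 library gave -0.17 to 4.22 for Cebpa, -0.10 to 0.36 for Spi1 and -0.14 to 0.90 for Tyrobp in E9.0 over E8.5; -2.64 to 0.31 for Csf1r, -6.55 to 0.47 for Elane, -0.0017 to 0.45 for Lyz2 and -2.25 to 0.20 for Mpo in E9.5 over E9.0; -1.64 to 2.96 for Cebpa, -4.95 to 0 for Elane and -9.99 to 0.22 for Mpo in E10.0 over E9.5; -8.02 to 0.68 for Prtn3 in E10.0 over E8.5; and -0.55 to 3.31 for Lyz2 and -0.29 to 2.19 for Mpo in the Gp9 split. E8.0 had 2 libraries, both with batch titles over 38, so E8.5 over E8.0 has no value within a set of libraries of 1 size.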

Other observations

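Genes known from mast cells and lymphocytes were counted in these cells too. Of 3 mast cell and basophil markers tested in E10.0 over E8.5, Cpa3 and Hdc were called higher, and of 4 lymphoid markers Lck, Ebf1 and Il2rg were, by edgeR's quasi-likelihood test, beside 31% of all genes called. At E10.0, 5 of the 8 mast cell and basophil markers (Fcer1a, Ms4a2, Mcpt8, Cma1 and Tpsb2) were at 0. The same held for 5 of the 9 lymphoid markers (Il7r, Rag1, Rag2, Cd3e and Flt3). The 1 late neutrophil granule marker tested, Csf3r, was called lower. With consecutive batch titles summed, 0 markers of the mast cell, lymphoid, late neutrophil and macrophage lists were called. The summed macrophage markers had a median of 581 CPM at E10.0, where Mrc1, the mannose receptor, was called higher and C1qa, Cd14 and Adgre1 were at 0.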
